A study of Mus musculus with 178 samples.

Results

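The genes of MHC class I presentation and of the immunoproteasome were followed in the blood of tumor-bearing mice during anti-PD-1 therapy. They were 10 genes taken by symbol from the deposited count table, namely H2-K1, H2-D1, B2m, Tap1, Tap2, Tapbp, Psmb8, Psmb9, Psmb10 and Nlrc5. The table lists 55450 genes, of which 13688 passed the filter on low counts over all libraries, and all 10 passed in each of the 15 comparisons made. Values are given as log2 CPM, a gene's share of the counts of a library (CPM) on a log2 scale after TMM scaling, which sets libraries to a common composition.

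The libraries came from whole blood of C57BL/6J mice with 4MOSC1 cells, a carcinogen-induced oral squamous carcinoma line, placed in the tongue or the buccal mucosa. All 45 mice received an antibody against PD-1, and no untreated mice were among the 178 libraries, so time since implantation and treatment cannot be told apart. The 15 responders gave 14 libraries on Day 17 and 15 on every other day, and the 30 non-responders gave 29 on Day 4 and 30 on every later day. Day 4 came before treatment and the later days fell during it, counted from the transfer of the tumor cells. Tumor response divided the mice, which carried no engineered allele by the labels, and mice are numbered here by ear tag within their response group. Non-responder 24 carries that label on the other days and a responder's label on Day 17, and its Day 17 library was counted with the non-responders.

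MHC class I molecules show peptides from inside the cell to CD8+ T cells and are found on nearly all nucleated blood cells. A heavy chain pairs with β2-microglobulin and is loaded in the endoplasmic reticulum with peptides that the proteasome cuts, that the TAP transporter imports and that tapasin helps to place. Interferon exchanges the catalytic subunits of the proteasome for those of the immunoproteasome, and the regulator NLRC5 acts at class I promoters on a set of short boxes that are shared between these genes.

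By GENCODE M21 on GRCm38, 7 of the genes lie on chromosome 17. H2-K1, a classical class I heavy chain gene, spans chr17:33996017-34000347 on the minus strand, and H2-D1, the other classical heavy chain gene of this strain, spans chr17:35262730-35267499 on the plus strand. Psmb9, Tap1, Psmb8 and Tap2 stand side by side in 34.3 kb at chr17:34181987-34216321. Tapbp, which encodes tapasin, lies at chr17:33915899-33929292. B2m, which encodes β2-microglobulin, lies at chr2:122147686-122153083. Psmb10 and Nlrc5 lie on chromosome 8, at chr8:105935735-105938444 and chr8:94434356-94527272.

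The RefSeq promoter windows of GRCm38.p6, 250 bases before and 50 after a start site, held 9 windows for 8 of the genes, and Tap2 and Nlrc5 had no window. The 3 genes whose protein products form the surface molecule are shown first, because their windows share a pair of boxes of the kind bound with NLRC5. The motif was TGACG, 20 bases of any kind and ATTGG, searched on both strands and chosen after the windows had been seen. It was present in 31 of 32851 windows, or 0.0944%, and in 4 of the 9 windows of these genes, which were both windows of H2-K1 and those of H2-D1 and B2m. The stretches run 5′ to 3′ on the strand of the gene, with the boxes in capitals, and lie at chr17:34000359-34000388 (minus strand), chr17:35262993-35263022 (plus strand) and chr2:122147609-122147638 (plus strand).
H2-K1: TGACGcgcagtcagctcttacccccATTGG
H2-D1: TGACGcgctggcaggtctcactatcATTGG
B2m: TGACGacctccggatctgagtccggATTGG
The H2-K1 and H2-D1 stretches were identical at 23 of 30 positions, whereas B2m matched H2-K1 at 13 and H2-D1 at 12, of which the 10 box positions were fixed by the motif.

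Windows of the same 3 genes also held repeats of the type found in interferon-responsive promoters, shown here because these genes are known interferon targets. GAANNGAAA was found in H2-K1 and H2-D1, on the opposite strand, and in 7.52% of all windows, and 2 copies of GAAA with 2 bases of any kind between them in B2m and in 3.44% of windows, with both strands searched. They lie at chr17:34000423-34000443 (minus strand), chr17:35262938-35262958 (plus strand) and chr2:122147542-122147563 (plus strand), with the matched letters in capitals and the unspecified ones in lower case.
H2-K1: ccacagTTTCacTTCtgcacc
H2-D1: cctcagTTTCacTTCtgcacc
B2m: gaacatGAAActGAAAatggga
The start sites of Psmb9 and Tap1 are 226 bases apart on opposite strands, and the box between them is printed on the Tap1 strand, at chr17:34187325-34187347, with the 5 letters of the box in capitals, which read ATTGG from the strand of Psmb9.
Tap1: ctcggctttCCAATcagcggctg
ATTGG on either strand was present in 37.4% of all windows. The GENCODE models of Tap1 and Psmb9 overlap by 212 bases at chr17:34187553-34187764, and whether the authors' counting used the strand is not given in the sources used here, so reads there may not be told apart.

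Total counts ranged from 26058944 to 82208651 per library, and haemoglobin genes took 68.7% to 88.0% of them, leaving 4535309 to 22174654 counts of other genes. The Day 24 library of non-responder 29 stood apart, with a TMM factor of 0.0848 against at least 0.266 in the others and 12605 genes with a count against at least 14372, and results are given a second time, leaving this library out, where they differ. Leukocyte markers (Ptprc, Laptm5 and Coro1a) were present in all libraries, with a mean log2 CPM of 7.25 to 8.00, whereas the epithelial markers Epcam, Krt5, Krt14 and Krt8 had median counts of 19, 2, 1 and 2 per library, although their mean log2 CPM reached 3.29 in 1 library of Day 9. The ear tags form a 4-digit series (11 responders and 7 non-responders) and a 3-digit series (4 responders and 23 non-responders), which was treated as a possible batch. On log2(TPM + 1), where the total of a library includes haemoglobin, the median difference of all genes between responders and non-responders was -0.45 on Day 4 and -0.43 on Day 9, and the median change in non-responders was -0.27, -0.31 and -0.25 on Day 17 against Day 4, Day 24 against Day 4 and Day 24 against Day 9. It was 0.12 in responders on Day 17 against Day 4, and 0.38 for the difference of the changes of both groups on both Day 17 and Day 24. Haemoglobin genes took a mean of 83.0% of the counts in responders and 77.8% in non-responders on Day 4, and 82.7% and 78.2% on Day 9.

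The surface molecule genes were the most abundant of the 10. By TPM, which is a level per length, the median over the 178 libraries was 197 for B2m, 143 for H2-K1 and 68.8 for H2-D1. The immunoproteasome, transporter and tapasin genes followed, with 10.8 TPM for Psmb8, 6.98 for Tapbp, 6.68 for Tap1, 5.67 for Psmb10, 4.65 for Psmb9 and 3.07 for Tap2, and Nlrc5 reached 3.54 TPM. B2m was above H2-K1 in 172 libraries, and H2-K1 above H2-D1, H2-D1 above Psmb8 and Psmb8 above Tapbp in all 178. The order of Tapbp and Tap1 held in only 117 libraries and that of Nlrc5 and Tap2 in 136, so these neighbours overlapped widely. The counts behind the genes were large for the heavy chains, with a median of 12231.5 per library for H2-K1 and 14414.5 for H2-D1. The deposited count of H2-D1 was not a whole number in 173 libraries and that of H2-K1 in 55, and how reads that fit more than 1 class I gene were divided is not given in the sources used here, so the split between these genes is uncertain.

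**Figure D1:**
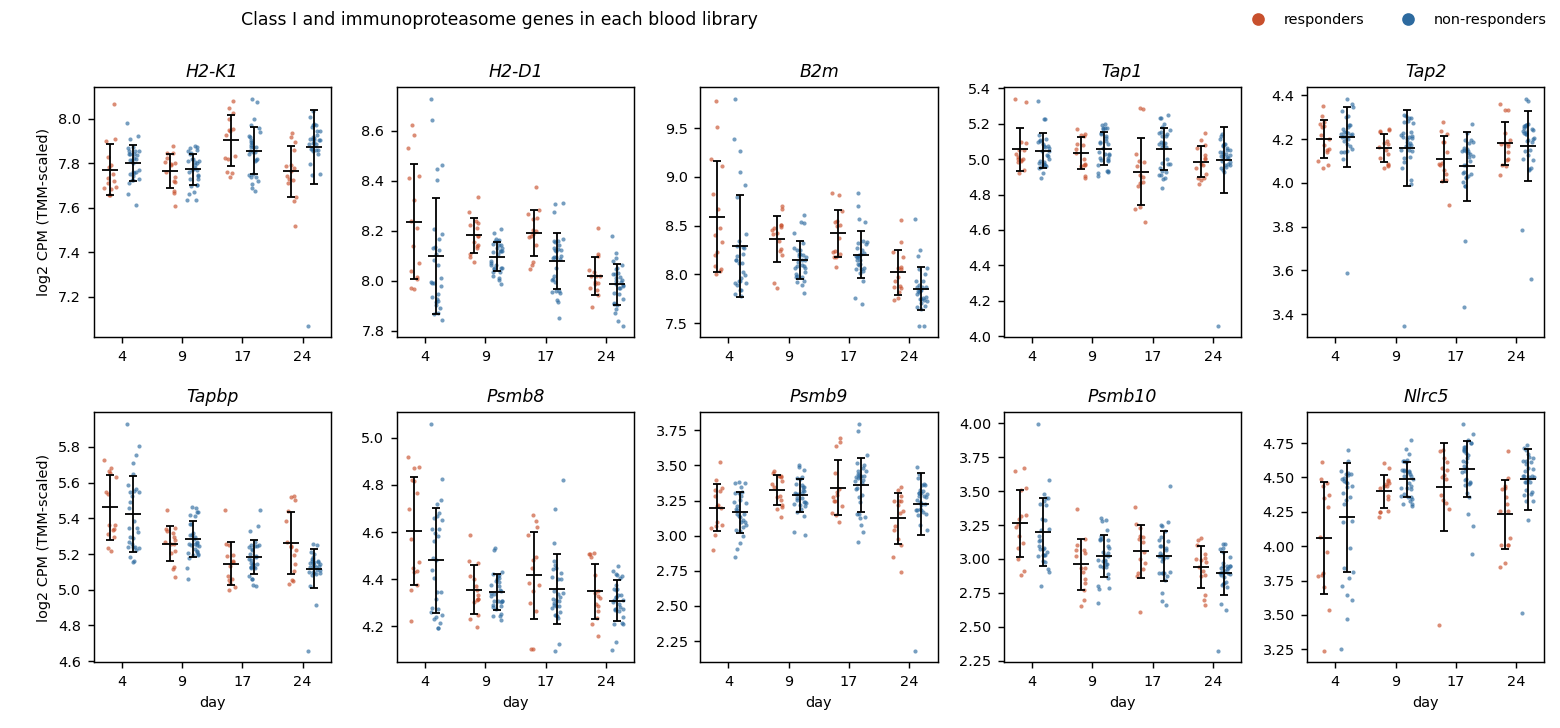
Log2 CPM (TMM-scaled, vertical axis) of the 10 genes in each blood library by day (horizontal axis), with responders in red and non-responders in blue; each point is 1 library and the bars are the mean ± SD of 14 or 15 responders and 29 or 30 non-responders. The spread of B2m, H2-D1, Tapbp, Psmb8 and Nlrc5 is widest on Day 4, and the lowest point of Tap2 on each day is the same mouse.

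The first question was how the genes changed from Day 4 within each response group. In both groups β2-microglobulin, tapasin and the immunoproteasome subunits Psmb8 and Psmb10 were lower at the end of the course than at its start, while H2-K1 and Tap1 were not called against Day 4 by edgeR with all libraries. On log2(TPM + 1) the responders' falls on Day 24 kept their direction and none was called by limma (B2m -0.36, Tapbp -0.022, Psmb8 -0.050 and Psmb10 -0.096, adjusted p = 0.999 each), where the median of all genes was 0.05 and 0.47% of all genes were called. Nlrc5 was higher on Days 9 and 17 in both groups, a direction that turned in non-responders on Day 17 on log2(TPM + 1). The changes were small: against Day 4 only 1 of them, that of B2m in responders on Day 24, passed the test with a fold of at least 1.5, where 7.06%, 4.5% and 3.15% of all genes did so in responders on Days 9, 17 and 24 and 9.89%, 4.96% and 6.03% in non-responders. In responders 4 of the 10 genes were called on Day 9 against Day 4 (1 higher, 3 lower), 4 on Day 17 (1 higher, 3 lower) and 5 on Day 24 (all lower), where 27.7%, 25.6% and 17.4% of all genes tested were called (higher 13.5%, 12.2% and 7.44%, lower 14.2%, 13.4% and 9.94%). In non-responders 6 were called on each day (2 higher and 4 lower on Days 9 and 17, 1 higher and 5 lower on Day 24), where 50.8%, 46.1% and 48.7% of all genes tested were called (higher 23.3%, 21.9% and 23.8%, lower 27.5%, 24.2% and 24.8%). The median log2 fold change of the 10 genes on Day 24 against Day 4 was -0.14 in responders and -0.10 in non-responders, against -0.01 and 0.01 over all genes tested. The libraries of a day are of separate animals, and the 4 libraries of a mouse are of the same animal. The main edgeR fit had no term for the mouse, so its p-values treat the libraries of a mouse as separate. A fit with the mouse as a block was run as an alternative.

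B2m, the light chain shared by all class I molecules, showed the largest fall. In responders its lowest, median and highest log2 CPM were 8.00, 8.41 and 9.78 on Day 4, 7.86, 8.42 and 8.70 on Day 9, 8.08, 8.43 and 8.84 on Day 17 and 7.73, 7.97 and 8.56 on Day 24. In non-responders they were 7.78, 8.14 and 9.80 on Day 4, 7.81, 8.13 and 8.61 on Day 9, 7.69, 8.18 and 8.83 on Day 17 and 7.47, 7.83 and 8.56 on Day 24. The days overlapped in both groups, and the highest Day 4 libraries stood far above any later one. On Day 24 against Day 4, B2m fell by 0.67 on the log2 scale in responders (SE 0.13, adjusted p = 0.000631), and was higher on Day 24 in 2 of 15 mice. It fell by 0.54 in non-responders (SE 0.090, adjusted p = 4.47e-07), being higher on Day 24 in 8 of 29 mice. Between Day 9 and Day 24 it fell by a further 0.30 in non-responders (adjusted p = 0.00435, 5 of 30 mice higher), while the responders' change of -0.35 did not pass the test (adjusted p = 0.0511, 1 of 15 mice higher) and did so with the mouse as a block (adjusted p = 0.0256). The Day 9 call of non-responders, -0.25 against Day 4 (adjusted p = 0.0169), was lost with the mouse as a block (-0.20, adjusted p = 0.0604) and without any of non-responders 12, 13, 17 and 22, where the adjusted p reached 0.0925. The responders' Day 9 value of -0.32 (adjusted p = 0.0646) was called without any of responders 6, 11, 13 and 15, and the non-responders' Day 17 value of -0.20 (adjusted p = 0.0623) without any of non-responders 25, 26, 28 and 29.

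Of the heavy chains, H2-D1 fell late and H2-K1 did not. H2-D1 had a lowest, median and highest log2 CPM of 7.97, 8.21 and 8.62 in responders on Day 4 and of 7.90, 8.02 and 8.21 on Day 24, and of 7.84, 8.01 and 8.73 in non-responders on Day 4 and 7.82, 7.99 and 8.18 on Day 24. Its fall was 0.23 in responders (SE 0.060, adjusted p = 0.00624, 2 of 15 mice higher) and 0.14 in non-responders (SE 0.041, adjusted p = 0.00309, 13 of 29 mice higher). On log2(TPM + 1) the responders' value was -0.0053 by limma (adjusted p = 0.999), where the median of all genes was 0.05 and 0.47% of all genes were called. The upper ends of the groups came down while the lower ends stayed close. H2-K1, the other classical heavy chain gene, held medians between 7.73 and 7.93 in responders and between 7.78 and 7.91 in non-responders over the 4 days. Its only call was 0.10 higher on Day 24 than on Day 9 in non-responders (SE 0.031, adjusted p = 0.00711, 27 of 30 mice higher), a direction that turned on log2(TPM + 1), with -0.33 where the median of all genes was -0.25. In non-responders on Day 24 against Day 4 it was 0.07 higher (adjusted p = 0.0704), and when non-responder 29's library of that day was left out it was 0.08 (adjusted p = 0.00482). This gene was called when any of 14 non-responders was left out, so its side of the threshold was not stable, and on log2(TPM + 1) its value turned to -0.36. Between Day 9 and Day 24 H2-D1 fell by 0.17 in responders (adjusted p = 0.0348) and by 0.12 in non-responders (adjusted p = 0.0158), where 19% and 41.8% of all genes were called (higher 8.07% and 21.2%, lower 10.9% and 20.6%) and 2 and 5 of the 10 genes were, of which 1, H2-K1 in non-responders, was higher. None of these reached a fold of 1.5, as 5.54% and 8.54% of all genes did. The responders' call for H2-D1 was lost when any of 7 mice was left out (responders 4, 6, 9, 11, 12, 14 and 15, adjusted p up to 0.15).

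Tapbp fell in 7 of its 8 comparisons within groups, the exception being Day 24 against Day 9 in responders (adjusted p = 0.983). Tapasin bridges the empty class I molecule and the transporter. Its lowest, median and highest log2 CPM in responders were 5.22, 5.36 and 5.73 on Day 4, 5.07, 5.27 and 5.44 on Day 9, 5.00, 5.15 and 5.45 on Day 17 and 5.03, 5.24 and 5.52 on Day 24. In non-responders they were 5.15, 5.35 and 5.93 on Day 4, 5.06, 5.26 and 5.47 on Day 9, 5.02, 5.17 and 5.45 on Day 17 and 4.66, 5.14 and 5.26 on Day 24, the lowest of these being non-responder 29. The ranges overlapped on all days, and the medians were lower on every later day than on Day 4. On Day 17 against Day 4 the change in responders was -0.32 (SE 0.059, adjusted p = 5.81e-05), and 0 of 14 mice were higher on Day 17. On Day 24 against Day 4 it was -0.20 in responders (SE 0.058, adjusted p = 0.0127, 2 of 15 mice higher), a call lost without responder 2 (adjusted p = 0.0562), and -0.33 in non-responders (SE 0.037, adjusted p = 5.84e-12, 2 of 29 mice higher). The non-responders' value was -0.32 without the library of non-responder 29. Of the 7 calls 4 were lost by limma on log2(TPM + 1), those of responders on Days 9, 17 and 24 against Day 4 (-0.12, -0.054 and -0.022, adjusted p = 1, 0.934 and 0.999) and of non-responders on Day 9 (-0.15, adjusted p = 0.452). Of all genes 3.76%, 0.559%, 0.47% and 20.8% were called in these comparisons on that scale.

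The transporter subunits Tap1 and Tap2, which form the peptide pump together, kept narrow levels. Tap1 medians lay between 4.90 and 5.08 log2 CPM in all 8 groups, and 0 of its 8 changes within groups passed the edgeR test, with 2 at an unadjusted p under 0.05 and 0 called by DESeq2. On log2(TPM + 1) limma called both genes lower in non-responders on Days 17 and 24 against Day 4 and on Day 24 against Day 9, where the medians of all genes were -0.27, -0.31 and -0.25. The values were -0.36, -0.45 and -0.40 for Tap1 (adjusted p = 0.0129, 0.00193 and 0.00625) and -0.40, -0.37 and -0.30 for Tap2 (adjusted p = 0.00174, 0.00232 and 0.0145). Without responder 4 the Day 17 change of Tap1 in responders was called (adjusted p = 0.0224), as was its change in non-responders on Day 24 against Day 9 without non-responder 3 or 7 (adjusted p down to 0.041). Tap2 medians lay between 4.09 and 4.22. Tap2 fell by 0.14 in non-responders on Day 17 against Day 4 (SE 0.039, adjusted p = 0.00155, 3 of 29 mice higher), from a lowest, median and highest value of 3.59, 4.22 and 4.39 to 3.43, 4.12 and 4.27. In responders the same comparison gave -0.09 for Tap2 (adjusted p = 0.0704) and -0.12 for Tap1 (adjusted p = 0.0867), and both passed with the mouse as a block (adjusted p = 0.0407 and 0.0287). The Tap2 value was also called without any of responders 4, 11 and 14 (adjusted p down to 0.0266).

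The 3 immunoproteasome subunits did not move together. Psmb8 (LMP7) and Psmb10 (MECL-1) fell, and Psmb9 (LMP2) rose in non-responders on Days 9 and 17, a direction that turned on Day 17 on log2(TPM + 1). For Psmb10 the lowest, median and highest log2 CPM in responders were 2.88, 3.26 and 3.67 on Day 4 and 2.66, 2.98 and 3.15 on Day 24, and in non-responders 2.80, 3.14 and 3.99 on Day 4 and 2.32, 2.91 and 3.11 on Day 24. In both groups the highest Day 24 library lay below the Day 4 median. Psmb10 fell on Day 24 against Day 4 by 0.33 in responders (SE 0.074, adjusted p = 0.00196, 1 of 15 mice higher) and by 0.31 in non-responders (SE 0.050, adjusted p = 1.35e-07, 2 of 29 mice higher). Its falls on Days 9 and 17 were 0.29 and 0.21 in responders and 0.19 on both days in non-responders, and the responders' Day 17 call (adjusted p = 0.0325) was lost without any of responders 1, 2, 3, 10 and 14 (adjusted p up to 0.0995). On log2(TPM + 1) the responders' values were -0.20 and -0.0050 by limma and neither was called (adjusted p = 0.976 and 0.996). The non-responders' Day 9 call was also lost there (-0.185, adjusted p = 0.338). In non-responders Psmb10 also fell by 0.13 on Day 24 against Day 9 (adjusted p = 0.0278, 8 of 30 mice higher), a call lost without any of non-responders 5, 23, 25 and 30 (adjusted p up to 0.0586).

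For Psmb8 the lowest, median and highest log2 CPM in responders were 4.22, 4.57 and 4.92 on Day 4 and 4.16, 4.33 and 4.51 on Day 24, and in non-responders 4.19, 4.48 and 5.06 on Day 4 and 4.10, 4.31 and 4.45 on Day 24. Here too the highest Day 24 library of each group lay below the Day 4 median. The changes of Psmb8 on Days 9, 17 and 24 against Day 4 were -0.25, -0.19 and -0.27 in responders (adjusted p = 0.002, 0.0205 and 0.00315) and -0.15, -0.14 and -0.19 in non-responders (adjusted p = 0.000943, 0.00176 and 3.38e-05). On Day 24, 2 of 15 responders and 6 of 29 non-responders were higher than on Day 4. The responders' Day 17 call was lost without responder 10 (adjusted p = 0.0714). On log2(TPM + 1) limma called none of the responders' changes (-0.20, -0.033 and -0.050, adjusted p = 0.99, 0.967 and 0.999). Of all genes 3.76%, 0.559% and 0.47% were called there. The non-responders' Day 9 call was lost as well (-0.175, adjusted p = 0.398), where 20.8% of all genes were called.

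Psmb9 had a lowest, median and highest log2 CPM of 2.84, 3.16 and 3.38 in non-responders on Day 4, of 3.01, 3.30 and 3.51 on Day 9 and of 2.95, 3.41 and 3.80 on Day 17. The Day 17 median lay above the highest Day 4 library. Psmb9 rose by 0.12 on Day 9 (SE 0.040, adjusted p = 0.00901) and by 0.19 on Day 17 (SE 0.040, adjusted p = 5.87e-05), being higher in 24 of 29 mice each time, although on log2(TPM + 1) the Day 17 value turned to -0.15 where the median of all genes was -0.27. On Day 24 Psmb9 was not called in non-responders (0.07, adjusted p = 0.155), and on log2(TPM + 1) it was called lower (-0.34, adjusted p = 0.0115), where the median of all genes was -0.31. Without all libraries of non-responder 29 edgeR called it higher (adjusted p = 0.0287). Without only the Day 24 library of that mouse it was not called (0.08, adjusted p = 0.0661). The responders' values on Days 9 and 17 were 0.12 and 0.13 (adjusted p = 0.144 and 0.116), with 12 of 15 and 9 of 14 mice higher. Psmb9 then fell in responders by 0.20 on Day 24 against Day 9 (SE 0.063, adjusted p = 0.0177, 3 of 15 mice higher), a call lost without any of responders 1, 8, 9 and 11 (adjusted p up to 0.0799).

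Nlrc5, the regulator of class I genes, changed in the opposite direction to Tapbp, Psmb8 and Psmb10 on Day 9 in both groups. Its lowest, median and highest log2 CPM were 3.24, 4.06 and 4.61 in responders on Day 4, 4.21, 4.44 and 4.61 on Day 9, 3.42, 4.51 and 4.70 on Day 17 and 3.85, 4.26 and 4.69 on Day 24. In non-responders they were 3.26, 4.38 and 4.70 on Day 4, 4.29, 4.50 and 4.77 on Day 9, 3.94, 4.60 and 4.89 on Day 17 and 3.51, 4.51 and 4.74 on Day 24, the lowest of these being non-responder 29. On Day 4 the libraries spread over more than 1 log2 unit, and on Day 9 the low end of this range was empty. The SD of Nlrc5 was 0.41 in responders and 0.40 in non-responders on Day 4, against 0.12 and 0.13 on Day 9. Nlrc5 rose on Day 9 by 0.30 in responders (SE 0.10, adjusted p = 0.0213, 10 of 15 mice higher) and by 0.23 in non-responders (SE 0.061, adjusted p = 0.000722, 21 of 29 mice higher). On Day 17 it was higher than on Day 4 by 0.34 in responders (adjusted p = 0.012) and 0.30 in non-responders (adjusted p = 1.8e-05), and on Day 24 by 0.24 in non-responders (adjusted p = 0.000818, 25 of 29 mice higher), whereas on log2(TPM + 1) the non-responders' values turned to -0.03 and -0.19, above the medians of all genes of -0.27 and -0.31. The responders' Day 9 call was lost without any of responders 1, 2, 9 and 14 (adjusted p up to 0.0643).

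**Figure D2:**
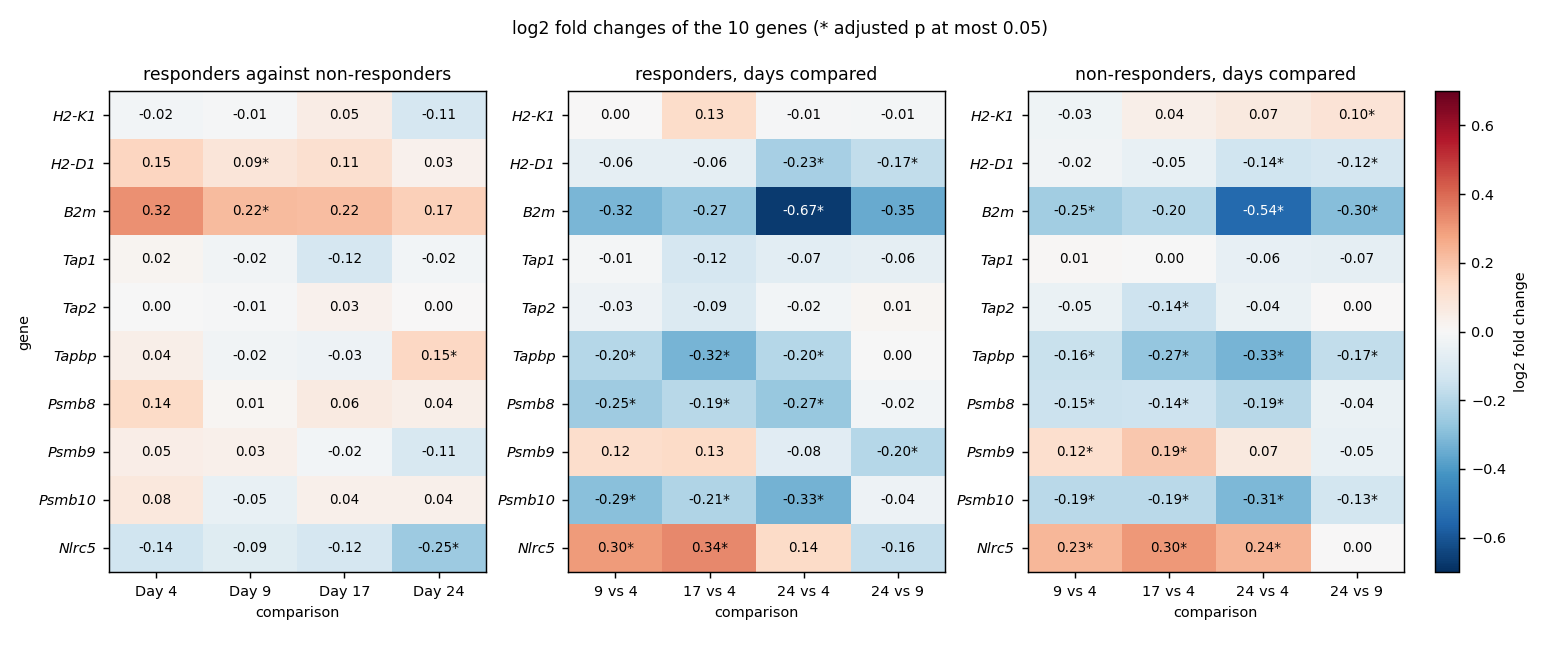
Log2 fold changes of the 10 genes (rows) in 12 comparisons (columns) from edgeR on the TMM scale, with red for higher and blue for lower, and an asterisk where the adjusted p was at most 0.05. B2m reaches -0.67 in responders and -0.54 in non-responders on Day 24 against Day 4 while Nlrc5 is 0.23 to 0.34 higher on Days 9 and 17; on log2(TPM + 1) the sign turned for Nlrc5 in non-responders on Days 17 and 24.

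Other measures moved with these changes. Markers of T cells were lower on Day 9 than on Day 4 for 6 of 6 genes in both groups, and their mean log2 CPM lay at 3.45 to 4.29 in responders on Day 4 against 2.66 to 3.52 on Day 9, and at 3.44 to 4.31 against 2.85 to 3.48 in non-responders. B cell markers were lower on Days 9, 17 and 24 for 3, 3 and 1 of 4 genes in responders, where 1 of the 3 on Day 17 turned on log2(TPM + 1), and for 4, 3 and 3 of 4 in non-responders. Their mean log2 CPM lay at 6.23 to 6.96 on Day 4 against 5.82 to 6.30 on Day 9 in responders, and at 6.29 to 7.10 against 5.85 to 6.49 in non-responders. Of the 3 leukocyte markers 2 were lower than on Day 4 on each later day in both groups, and of those in responders on Day 24, 1 turned on log2(TPM + 1). The other was higher in non-responders on Days 9 and 17, the latter turning on log2(TPM + 1). T cell markers were also lower on Day 17 than on Day 4 for 5 of 6 genes in responders and 6 of 6 in non-responders. On Day 24, 4 of 6 T cell markers in responders and 6 of 6 in non-responders were still lower than on Day 4, with 3 of 3 NK cell markers lower in both groups (mean log2 CPM 0.77 to 1.71 against 0.79 to 2.54 on Day 4 in responders, and 0.33 to 1.96 against 1.11 to 2.40 in non-responders). Neutrophil markers were higher for 6 of 6 genes in non-responders on Day 9 (3.46 to 5.41 against 2.34 to 4.06) and for 3 of 6 in responders (3.71 to 5.06 against 3.21 to 4.70), and monocyte markers for 4 of 4 and 1 of 4. On Day 17 neutrophil markers were higher than on Day 4 for 6 of 6 genes in non-responders and 4 of 6 in responders. On Day 24 they were higher for 5 of 6 in non-responders, of which 2 turned on log2(TPM + 1), and lower for 1 of 6 in responders. Platelet markers were lower on Day 9 for 1 of 4 genes in responders and 4 of 4 in non-responders. Platelet markers were lower on Day 24 than on Day 4 for 2 of 4 genes in responders (5.44 to 7.41 against 6.04 to 8.60) and 4 of 4 in non-responders (4.88 to 8.29 against 5.51 to 8.50), and erythroid markers were higher for 6 of 7 in non-responders, 1 of which turned on log2(TPM + 1). On Day 24 against Day 9, neutrophil markers were lower for 6 of 6 genes in both groups. Monocyte markers were lower for 4 of 4 and NK cell markers for 3 of 3. T cell markers were higher for 5 of 6 in responders and 6 of 6 in non-responders, where all 6 turned on log2(TPM + 1). B cell markers were higher for 4 of 4 and 3 of 4, the latter 3 turning. Erythroid markers were higher for 7 of 7 in non-responders, of which 5 turned. In blood as a whole, fewer cells of a type and less RNA of a gene per cell cannot be told apart, and the part of these markers in the changes was not tested. Fold changes also moved with the exon length of genes, most in responders on Day 24 against Day 4. There the Spearman correlation over 12560 genes, which are not independent replicates, was 0.39. The median change was -0.16 in genes of up to 2618 bases and 0.09 in those of at least 6641 bases. Other comparisons within groups gave correlations from -0.02 to 0.20, with 0.13 in non-responders on Day 24 against Day 4. B2m has 860 bases, Psmb10 1705, H2-D1 2579 and Nlrc5 8493. Between these lie H2-K1 with 2938, Psmb8 with 3381, Tapbp with 3628, Psmb9 with 3660, Tap2 with 3781 and Tap1 with 5476. Of the genes between both limits, Psmb8 and Tapbp fell in responders on Day 24 against Day 4. H2-K1, Psmb9, Tap2 and Tap1 were not called there, and the part of length was not tested.

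The next question was whether responders and non-responders differed within a day. Few of the 10 genes did and none by a fold of 1.5, as 4.21%, 3.65%, 0.264% and 0.297% of all genes did on Days 4, 9, 17 and 24. On Day 4, before treatment, 0 genes were called by edgeR, 0 had an unadjusted p under 0.05 and 0 were called by DESeq2, where 7.42% of all genes tested were called, 6.4% higher and 1.01% lower. With the tag series as a covariate Psmb8 was called higher in responders, where 13.4% of all genes were called. On log2(TPM + 1) limma called all 10 lower, where 91.1% of all genes were called. On Day 9 B2m and H2-D1 were called, both higher in responders, where 13.4% of all genes were called, 9.43% higher and 3.95% lower. On Day 17, 0 genes were called by edgeR with 3 at an unadjusted p under 0.05 and 1 called by DESeq2 (H2-D1, 0.11, adjusted p = 0.0491), where 1.99% of all genes were called, 0.799% higher and 1.19% lower. Without non-responder 28, edgeR also called 1 on Day 17 (B2m, adjusted p = 0.0399). On Day 24 Tapbp was called higher and Nlrc5 lower in responders, where 8.55% of all genes were called, 3.41% higher and 5.14% lower.

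On Day 9 the H2-D1 level ran from 8.08 to 8.34 with a median of 8.18 log2 CPM in responders and from 7.99 to 8.21 with a median of 8.11 in non-responders. The groups overlapped, with 6 of 15 responders above all non-responders and 13 of 30 non-responders below all responders. H2-D1 was 0.09 higher in responders (SE 0.028, adjusted p = 0.0289) and B2m 0.22 higher (SE 0.066, adjusted p = 0.0168), directions that turned on log2(TPM + 1), with -0.64 and -0.53 where the median of all genes was -0.43. On that scale all 10 genes were lower in responders on Days 4 and 9, by 0.49 to 0.83, and below that median. With the tag series as a covariate neither gene was called on Day 9 (H2-D1 0.07, adjusted p = 0.258, and B2m 0.14, adjusted p = 0.329), where 7.46% of all genes were called. Within the 4-digit series the differences were 0.08 for H2-D1 and 0.19 for B2m (adjusted p = 0.613 and 0.511), and within the 3-digit series 0.04 and 0.08 (adjusted p = 0.831 and 0.87), so both kept their direction and neither was called. Of all genes 0% were called within the 4-digit series and 4.17% within the 3-digit series, so the loss in the former is not particular to these genes. The H2-D1 call was also lost without responder 6 or responder 12 (adjusted p up to 0.0705).

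On Day 24 Tapbp was 0.15 higher in responders (SE 0.042, adjusted p = 0.0232), with 6 of 15 responders above all non-responders, and this direction turned on log2(TPM + 1) (-0.02, where the median of all genes was -0.09). Nlrc5 was 0.25 lower in responders (SE 0.067, adjusted p = 0.0154), with 3 of 30 non-responders above all responders and 1, non-responder 29, below all of them. With the tag series as a covariate the values were 0.17 and -0.20 (adjusted p = 0.069 and 0.144). Within the 4-digit series they were 0.22 and -0.28 (adjusted p = 0.318 and 0.345), and within the 3-digit series 0.10 and -0.10 (adjusted p = 0.382 and 0.646). Of all genes 0.978% were called with the covariate and 0% within either series. The Tapbp call was lost without any of responders 1, 9, 10 and 13 (adjusted p up to 0.0551). Without the Day 24 library of non-responder 29, 5 of the 10 genes were called, adding B2m 0.21 higher and H2-K1 and Psmb9 0.13 and 0.12 lower in responders (adjusted p = 0.019, 0.00561 and 0.0273). In that fit 21.4% of all genes were called.

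Erythroid markers were higher in responders on Day 4 for 4 of 7 genes and on Day 9 for 7 of 7, of which 1 turned on log2(TPM + 1), with a mean log2 CPM of 13.4 to 15.3 in responders against 12.4 to 14.7 in non-responders on Day 9. On Day 24, 0 of the 7 were called. Platelet markers were higher in responders on Day 9 for 2 of 4 genes (mean log2 CPM 5.55 to 7.23 against 5.49 to 7.01) and neutrophil markers on Day 4 for 4 of 6 (3.21 to 4.70 against 2.34 to 4.06), all of which turned on log2(TPM + 1). Of the 3 leukocyte markers 1 was higher in responders on Day 9, which turned as well, and 1 on Day 24, which did not. The lengths of genes moved with the Day 9 difference too, with a Spearman correlation of -0.21 over 12608 genes. Their part in the differences of B2m and H2-D1 was not tested.

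Whether the course itself differed between responders and non-responders was tested with an interaction term in a fit of all libraries. For the 10 genes 0 were called by edgeR and 0 by DESeq2 on Day 9, Day 17 and Day 24 against Day 4, where 0%, 0.351% and 3.76% of all genes tested were called (on Day 24, 1.67% higher and 2.1% lower), and 0%, 0.3% and 2.26% with a fold of at least 1.5. Without the library of non-responder 29 the Day 24 share of all genes called was 1.12%. At an unadjusted p under 0.05 there were 0, 1 (Tap1 on Day 17, -0.13, p = 0.0242) and 1 (Psmb9 on Day 24, -0.16, p = 0.031). The differences of the change of B2m were -0.09, -0.09 and -0.13 with an SE of 0.16 each. On log2(TPM + 1) the differences of the changes turned for 3, 7 and 8 of the 10 genes on Days 9, 17 and 24, and 2 genes were called on Day 24, Tapbp (0.64) and B2m (0.57), where the median of all genes was 0.38 and 41.5% of all genes were called.

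Each immunoproteasome subunit replaces a constitutive one: Psmb8 takes the place of Psmb5, Psmb9 that of Psmb6 and Psmb10 that of Psmb7. The log2 ratio of each pair within a library, which no scaling of libraries can move, was compared between days and groups by two-sided permutation tests with 100000 resamples. The exon lengths differ within each pair, with 3381 bases for Psmb8 and 899 for Psmb5, 3660 for Psmb9 and 1872 for Psmb6, and 1705 for Psmb10 and 3421 for Psmb7. A change that moves with length can therefore move these ratios, and its part was not tested. The 3 pairs went separate ways. The ratio of Psmb9 to Psmb6 rose in all 6 comparisons with Day 4, that of Psmb10 to Psmb7 fell in all 6, and that of Psmb8 to Psmb5 was called in 0 of 6, with 0 at an unadjusted p under 0.05. A ratio does not show which of its genes moved. Of the 12 comparisons of responders with non-responders 0 were called, with 0 at an unadjusted p under 0.05.

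The log2 ratio of Psmb9 to Psmb6 had a lowest, median and highest value of 0.06, 0.67 and 0.95 in responders on Day 4 and of 0.70, 1.00 and 1.33 on Day 9. The Day 9 median lay above the highest Day 4 value. The mean rose from 0.62 ± 0.28 (SD, n = 15) to 1.01 ± 0.18 (SD, n = 15), a difference of 0.39 (adjusted p = 0.00045 by permutation over 18 tests), with 14 of 15 mice higher. On Days 17 and 24 the responders' differences were 0.27 and 0.31 (adjusted p = 0.0214 and 0.00962). Psmb9 itself was not called in responders on Days 9, 17 and 24 against Day 4. Its mean log2 CPM there was 3.20, 3.32, 3.34 and 3.12 on Days 4, 9, 17 and 24. That of Psmb6 was 2.58, 2.31, 2.44 and 2.19, so the responders' Day 24 rise of the ratio went with a lower Psmb6 and no higher Psmb9. In non-responders the mean was 0.72 ± 0.29 (SD, n = 29) on Day 4, and it was higher by 0.28, 0.31 and 0.23 on Days 9, 17 and 24 (adjusted p = 0.00018, 0.00018 and 0.012), with 22, 26 and 24 of 29 mice higher. The lowest Day 24 value, -0.69, was the library of non-responder 29. In non-responders the mean log2 CPM on Days 4, 9, 17 and 24 was 3.17, 3.29, 3.36 and 3.23 for Psmb9 and 2.45, 2.29, 2.33 and 2.28 for Psmb6.

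The ratio of Psmb10 to Psmb7 had a lowest, median and highest value of 0.72, 0.98 and 1.42 in responders on Day 4 and of 0.48, 0.69 and 1.11 on Day 17. Its mean fell from 0.99 ± 0.17 (SD, n = 15) to 0.75 ± 0.19 (SD, n = 14), with 2 of 14 mice higher. The differences from Day 4 were -0.22, -0.24 and -0.14 in responders on Days 9, 17 and 24 (adjusted p = 0.00714, 0.00389 and 0.0309) and -0.10, -0.10 and -0.20 in non-responders (adjusted p = 0.0309, 0.0277 and 0.00045). In non-responders 12, 8 and 6 of 29 mice were higher, so the change was not uniform among mice. Sign flips within mice left the same 12 of 18 comparisons called. With TPM in place of counts, 3 of the 6 falls of this ratio did not pass, those of responders on Day 24 and of non-responders on Days 17 and 24 (-0.12, -0.07 and -0.15, adjusted p = 0.151, 0.172 and 0.0533). The ratio of Psmb8 to Psmb5 had group means between 1.92 and 2.08 and differences from Day 4 between -0.11 and 0.04. It was called with TPM in responders on Day 17 (-0.17, adjusted p = 0.0458) and in non-responders on Day 24 once the library of non-responder 29 was left out (0.07, adjusted p = 0.0362).

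**Figure D3:**
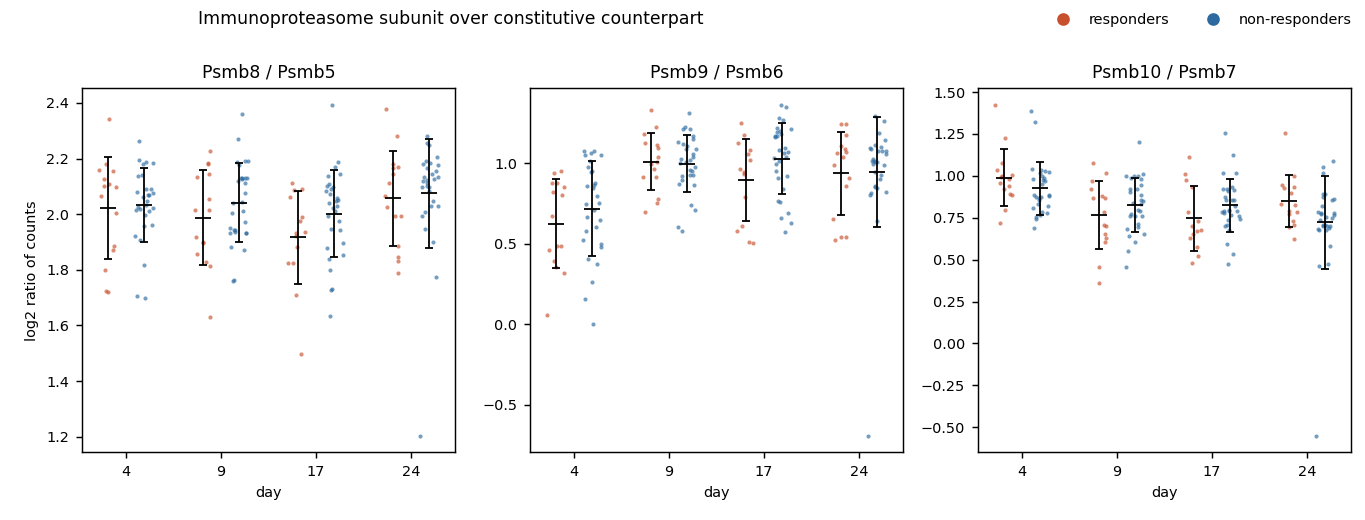
Log2 ratio of the counts of an immunoproteasome subunit to its constitutive counterpart (vertical axis) in each library by day (horizontal axis), with responders in red and non-responders in blue and the mean ± SD of each group as bars. The means of Psmb9 over Psmb6 rise from 0.62 and 0.72 on Day 4 to 1.01 and 0.99 on Day 9, those of Psmb10 over Psmb7 fall from 0.99 and 0.92 to 0.77 and 0.83, and the lowest Day 24 point in each plot is non-responder 29. The plots do not show which gene of a pair moved.

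Over all 178 libraries, which are 4 to a mouse in most mice and so not independent, Pearson correlations of log2 CPM between the 10 genes are given as a description. Among B2m, H2-D1, Tapbp, Psmb8 and Psmb10 the correlation was 0.87 for B2m and H2-D1, 0.81 for Psmb8 and Psmb10, 0.77 for Tapbp and Psmb10 and 0.75 for Tapbp and Psmb8. Psmb9 correlated with H2-K1 at 0.61, with Tap1 at 0.56 and with Nlrc5 at 0.55. Tap1 also correlated with Tapbp at 0.40 and with Psmb10 at 0.39. Tap2 reached at most 0.26 with any of the others. Nlrc5 correlated negatively with B2m (-0.62), Tapbp (-0.58), H2-D1 (-0.58), Psmb8 (-0.57) and Psmb10 (-0.46). The genes of the list thus shared no common course, and the points share library, depth and blood composition.

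**Figure D4:**
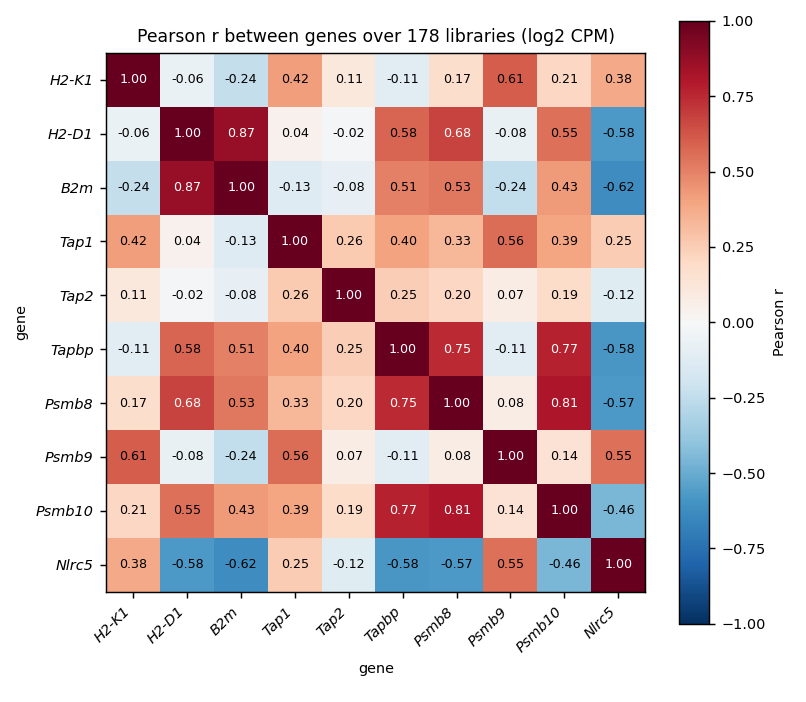
Pearson correlation of log2 CPM between the 10 genes over 178 libraries, with red for positive and blue for negative values printed in each cell. H2-D1 and B2m reach 0.87 and Psmb8 and Psmb10 0.81, whereas Nlrc5 and B2m are at -0.62.

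Within a day and a response group, where each point is a separate mouse, 6 pairs of genes were tested in 8 groups, 48 correlations in all, with permutation p-values adjusted over the 48. Tap1 and Psmb9, the neighbours that share a promoter region and 212 bases of gene model, were correlated in 5 of 8 groups. In non-responders their Pearson r was 0.55, 0.59, 0.67 and 0.92 on Days 4, 9, 17 and 24, with Spearman rho of 0.59, 0.58, 0.68 and 0.54 (adjusted permutation p of r = 0.0107, 0.00405, 0.00096 and 0.00096). Without the 2 libraries farthest from the median of Tap1 the r values were 0.60, 0.61, 0.58 and 0.55, so the height of the Day 24 value rested on those libraries. Within the 4-digit series of non-responders r was between 0.68 and 0.99 and within the 3-digit series between 0.47 and 0.74. In responders r ran from -0.34 on Day 4 to 0.75 on Day 17 (adjusted p = 0.014), and the latter was 0.44 without the 2 farthest libraries and 0.41 within the 4-digit series.

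Psmb8, which is adjacent to Tap1 on the other side, correlated with Psmb9 in 3 of 8 groups. The values were 0.65 in responders on Day 17 (adjusted p = 0.0404), 0.64 in non-responders on Day 17 (adjusted p = 0.00192) and 0.51 in non-responders on Day 24 (adjusted p = 0.0222), with Spearman's rho of 0.67, 0.60 and 0.31, and the last r fell to 0.32 without the 2 farthest libraries. Both heavy chain genes correlated in 1 of 8 groups, the non-responders on Day 17 (r = 0.47 and rho = 0.46, adjusted p = 0.0364 for r). H2-K1 and B2m, whose products pair, were correlated in 2 of 8 groups and negatively in both, with -0.64 in responders and -0.64 in non-responders on Day 24 (adjusted p = 0.0364 and 0.0179), where Spearman's rho was -0.54 and -0.32 and did not pass (adjusted p = 0.123 and 0.166). In responders on Day 9 rho was -0.66 and passed (adjusted p = 0.0413), while r was -0.56 and did not (adjusted p = 0.0909). The non-responders' value was -0.08 without the 2 farthest libraries and therefore rested on them. Nlrc5 correlated with H2-K1 in 1 of 8 groups (0.85 in non-responders on Day 24, and 0.41 without the 2 farthest) and with Tap1 in 2 of 8 (0.59 in non-responders on Day 9 and 0.88 on Day 24, the latter 0.57 without the 2 farthest), with rho of 0.48, 0.56 and 0.61. For Tap1 and Nlrc5 in responders on Day 17 rho was 0.71 and passed (adjusted p = 0.0382), while r was 0.55 and did not (adjusted p = 0.138).

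A pattern of Tap2 that was chosen after its values were seen concerned a single mouse. Non-responder 8 had the lowest Tap2 of all mice on each of the 4 days, with log2 CPM of 3.59, 3.35, 3.43 and 3.56, where the lowest of the other mice were 4.07, 3.99, 3.74 and 3.79 and their medians 4.22, 4.18, 4.12 and 4.20. These were the 4 lowest Tap2 values of the 178 libraries. On the linear scale the mouse held 64.4%, 56.0%, 62.1% and 64.2% of the other mice's median, from 1097, 574, 468 and 562 counts. The low level was thus present before treatment and on each later day. The neighbouring genes of the cluster were not the lowest in this mouse on any day: Tap1 was above 9, 29, 35 and 34 of the 43 or 44 other mice on the 4 days. Psmb8, which is next to Tap2, was above 5, 10, 37 and 34. Psmb9 was above 17, 4, 42 and 30. Elsewhere Tapbp was the lowest of all mice on Day 4 and B2m on Day 24. Of all 13688 genes, 23 (0.168%) had the same mouse lowest on all 4 days and 6 (0.0438%) the same mouse highest, and Tap2 was the only one of the 10 among them. Of the 23 genes, 5 including Tap2 had a gap of at least 0.23 log2 units to the next mouse on every day.

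The other genes of the pathway were followed in 5 lists. Of the 15 genes of the constitutive proteasome core and its maturation factor, 11 were lower in responders and 7 in non-responders on Day 24 against Day 4, with 0 higher in either, and 1 of the 11, Psmb4, turned on log2(TPM + 1). Of all genes 9.94% and 24.8% were called lower in these comparisons. Among them Psmb6, the constitutive counterpart of Psmb9, changed by -0.39 in responders (adjusted p = 0.0017), and Psmb5, that of Psmb8, by -0.30 (adjusted p = 0.01) and in non-responders by -0.25. Of the 6 genes of peptide loading and trimming, 4 were lower in responders, 1 of which, Erap1, turned on log2(TPM + 1), and 6 of 6 in non-responders on Day 24, including the chaperone Calr (-0.41 and -0.37) and Pdia3, the disulphide isomerase of the loading complex (-0.32 and -0.31). Of the 4 proteasome activator genes, 1 was higher and 1 lower on Day 9 in each group, and 1 was lower on Day 17 in each. Of all genes 13.5% and 23.3% were called higher and 14.2% and 27.5% lower on Day 9 in responders and non-responders. On Day 17, 13.4% and 24.2% were called lower, and in non-responders the counts of the list were near these shares. On Day 24, 2 were lower in responders. In non-responders 2 were lower and 2 higher on that day, of which Psme4 turned on log2(TPM + 1). Psme1, a subunit of the interferon-inducible proteasome activator, was lower on Days 9, 17 and 24, by 0.32, 0.36 and 0.45 in responders and 0.20, 0.20 and 0.38 in non-responders. Falls of Tapbp, Psmb8 and Psmb10 thus stood beside falls in constitutive subunits and chaperones on the same day.

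The nonclassical heavy chains were higher in responders on Day 17 than on Day 4 for 6 and lower for 1 of 11 genes tested of 16 listed, and none of these turned on log2(TPM + 1). In non-responders 9 were higher and 1 was lower, and 8 of the 9 turned on log2(TPM + 1), so that their direction there depended on the scaling. Of all genes 12.2% and 21.9% were called higher in these comparisons. On Day 24 against Day 4, 0 were higher and 2 lower in responders, and 8 were higher and 1 lower in non-responders, where all 8 turned on log2(TPM + 1). On Day 17 H2-Q10 was higher by 0.71 and 0.72 and did not turn, and H2-Q7 was higher by 0.46 and 0.37, the latter turning to -0.11. The H2-Q and H2-T genes are close relatives of H2-K1 and H2-D1 and of each other, so that reads may be divided between them and the values are uncertain. On Day 24 3 of them were lower in responders than in non-responders (H2-T10 -0.38, H2-Q4 -0.24 and H2-T23 -0.13), where 5.14% of all genes were. The change of H2-T23 from Day 4 differed between the groups by -0.18 (adjusted p = 0.0188). Of the 16 interferon and class I regulators, 6 in each group were higher on Day 9 than on Day 4. Lower calls numbered 1 in responders and 2 in non-responders, 1 of the latter turning on log2(TPM + 1). Of all genes 13.5% and 23.3% were called higher in these comparisons and 14.2% and 27.5% lower. On Day 17 against Day 4, 3 were higher and 4 lower in responders, 3 of the latter turning on log2(TPM + 1). In non-responders 4 were higher, all turning, and 3 lower. On Day 24 against Day 4, 0 and 2 were higher, the 2 turning, and 2 and 4 lower. Of all genes 12.2% and 21.9% were called higher and 13.4% and 24.2% lower on Day 17. On Day 24, 7.44% and 23.8% were called higher and 9.94% and 24.8% lower. On Day 24 against Day 9, 7 of the list in responders and 8 in non-responders were lower and 1 in each was higher, the non-responders' one turning on log2(TPM + 1). Of all genes 10.9% and 20.6% were called lower there and 8.07% and 21.2% higher. On Day 9 against Day 4 Irf1, which acts at interferon elements of class I promoters, was higher by 0.27 in responders and 0.44 in non-responders, and Ifngr2, a receptor chain for interferon gamma, by 0.40 and 0.45.

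By the Pearson correlation over the 178 libraries, the genes most like the mean of the 10 standardized genes were Ifi27l2a (0.72), Napsa (0.71), Snx20 (0.68), Cd52 (0.67) and Oxa1l (0.67), out of 13678 compared. Those most like Nlrc5 were Zc3h7a (0.90), Fnbp4 (0.90), Gbp4 (0.89), Gm20559 (0.89) and Epm2aip1 (0.88). These are descriptions of likeness over libraries that share mice.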

How the data were processed

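RNA from whole blood was sequenced, and per the submitters' processing notes the reads were mapped with STAR to mm10; the counting tool is not given in the sources used here. The authors deposited estimated counts per gene, which were not whole numbers for every gene and were rounded, and TPM values, which the authors scaled to a total that includes haemoglobin. All per-sample columns were mapped to libraries (0 not used). Counts were scaled by TMM, filtered with filterByExpr and tested by the quasi-likelihood test of edgeR 4.0.16 in R 4.3.3, with p-values adjusted by Benjamini-Hochberg over all genes tested. Calls were made where this p did not exceed 0.05, and a second rule also required a fold of 1.5 or more. The response groups were compared on 4 days, the days within a group, and the interaction of both in all libraries. The design had assumed whole counts.

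The genes and lists were chosen with earlier results of these data known. All 10 genes are named, and of the other lists up to 3 genes in each direction with the smallest p. Others were named, after their values were seen, where a sentence turns on them. The signs of the lists' calls, except those of the interaction, were also read on mean log2(TPM + 1), with no test, an alternative added after seeing the data.

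Alternatives were DESeq2 1.42.0, limma 3.58.1 on log2(TPM + 1) for genes with a mean of at least 1 TPM, a filter of 1 count, haemoglobin genes removed, the tag series, the mouse as a block, and leaving out each mouse. The same mouse gave the libraries of all days by its ear tag, so the pairing comes from the animals, although the mean correlation of a mouse's deviations between days was only -0.06 to 0.09. Subunit ratios (0.5 added to each count) and correlations used permutation tests with 100000 resamples in Python 3.11.15 with scipy 1.17.1. On simulated data for responders against non-responders on Day 4 (12363 genes), 15.6% of 96 genes changed by 0.3 on the log2 scale and 98% of 98 genes changed by 1 were recovered, and 0.0493% of unchanged genes were called. Identical values were found in 0 pairs of libraries. The depth of a library limits the precision of low genes, and 1 library each of the non-responders on Day 4 and of the responders on Day 17 was not analysed here.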

Additional observations from a re-analysis of the deposited data

How the results depend on the processing

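The counts of called genes among the 10 depended on the scaling, on the tag series and on single mice, and the cause was not tested. With a fold of at least 1.5 required, 1 gene remained in responders on Day 24 against Day 4 and 0 in each other comparison that had calls. With the tag series as a covariate 1 gene was called on Day 4 (Psmb8, 0.24, adjusted p = 0.0411) and 0 on Days 9 and 24. Of all genes 13.4%, 7.46% and 0.978% were called in these fits. Within either series alone 0 were called on Days 9 and 24. Of all genes 0% were called there on both days in the 4-digit series, and 4.17% and 0% in the 3-digit series. A filter of at least 1 count in any library gave 1 on Day 9, 1 on Day 24, 0 in responders on Day 24 against Day 9 and 3 in non-responders on Day 24 against Day 9. Of all genes 6.34%, 2.27%, 9.16% and 24% were called with this filter. DESeq2 called 1 on Day 17, and removal of haemoglobin genes left 1 in responders on Day 24 against Day 9, where 4.56% and 19.7% of all genes were called. Without the Day 24 library of non-responder 29, 5 were called between responders and non-responders on Day 24, where 1 library fewer was fitted and 21.4% of all genes were called, against 8.55% with it.

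On log2(TPM + 1) 10 genes were called on Day 4, 10 on Day 9, 0 on Day 24, 0 in responders in each comparison within the group, 0, 7 and 9 in non-responders on Days 9, 17 and 24 against Day 4, 9 on Day 24 against Day 9, and 2 in the interaction of Day 24. Of all genes 91.1% and 92.7% were called on this scale on Days 4 and 9, 20.8%, 71.9% and 82% in non-responders on Days 9, 17 and 24 against Day 4, and 70.2% on Day 24 against Day 9. The shares were 0% on Day 24, 0.47% to 3.76% in the comparisons within responders and 41.5% in the interaction of Day 24. The sign turned on this scale for 7, 4, 5 and 5 of the 10 genes between responders and non-responders on Days 4, 9, 17 and 24, for 1, 3 and 4 in responders and 1, 3 and 3 in non-responders on Days 9, 17 and 24 against Day 4, for 5 and 3 on Day 24 against Day 9, and for 3, 7 and 8 in the interactions of Days 9, 17 and 24. Of the values called on either scale, those that turned were, between responders and non-responders, on Day 4 Tapbp (-0.66), Psmb8 (-0.63), Psmb10 (-0.58), Tap1 (-0.66), B2m (-0.53), H2-D1 (-0.68) and Psmb9 (-0.52), on Day 9 Psmb8 (-0.66), B2m (-0.53), H2-D1 (-0.64) and Psmb9 (-0.49), and on Day 24 Tapbp (-0.019). In non-responders they were, on Day 17 against Day 4, Nlrc5 (-0.027) and Psmb9 (-0.15), on Day 24 against Day 4, H2-K1 (-0.36), Nlrc5 (-0.19) and Psmb9 (-0.34), and on Day 24 against Day 9, Tap2 (-0.30), H2-K1 (-0.33) and Nlrc5 (-0.32). In the interaction of Day 24 it was B2m (0.57).

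Leaving out each mouse in turn gave 0 to 0 called genes on Day 4, 1 to 2 on Day 9 (1 without responder 6 or 12), 0 to 1 on Day 17 (1 without non-responder 28) and 1 to 5 on Day 24 (1 without responder 1, 9, 10 or 13 and 5 without non-responder 29). Against Day 4 the ranges were 3 to 5, 2 to 6 and 4 to 5 in responders on Days 9, 17 and 24 (on Day 17, 2 without responder 10 and 6 without responder 4), and 5 to 6, 6 to 7 and 6 to 8 in non-responders. For Day 24 against Day 9 they were 0 to 3 in responders (0 without responder 9 or 11, 3 without responder 2) and 4 to 6 in non-responders. The interaction was not run without single mice. With the Day 17 library of non-responder 24 counted with the responders, 70 single values kept their direction and side of the threshold and 2 gained a call. With the mouse as a replicate block, 53 single values kept their direction and side of the threshold, 3 gained a call (Tap1 -0.13 and Tap2 -0.10 in responders on Day 17 against Day 4, and B2m -0.36 in responders on Day 24 against Day 9) and 1 lost it (B2m -0.20 in non-responders on Day 9 against Day 4), and the pairing changed no other call.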
